A study of Mus musculus with 23 samples.

Results

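F1 males of a cross between the laboratory strains B6 and BALB/C were compared in both directions, B6xBALB/C (6 arrays) and BALB/CxB6 (3 arrays). The arrays were taken by the genotype in their titles, which gave 9 of the 23 arrays of the series. Expression was measured on Affymetrix Mouse Gene 1.0 ST arrays. Each array held RNA of spermatogenic cells from a pool of 4 testes of mice aged 14.5 days. The series is about hybrids between mouse subspecies (B6xPWD and PWDxB6, 3 arrays each), for which B6xBALB/C and BALB/CxB6 are a control cross between strains of like origin. Inbred B6 (3 arrays), PWD (3 arrays) and PWDxPWK (2 arrays) made up the rest. By the naming convention the mother stands first, so a B6xBALB/C male has the X and the mitochondria of B6 and the Y of BALB/C, and a BALB/CxB6 male the reverse. In both directions every autosome is heterozygous for B6 and BALB/C, and no allele was engineered and no agent given. Inbred BALB/C was not analysed here, so the BALB/C X was seen only in the BALB/CxB6 males.

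Reciprocal F1 males share their autosomal sequence and differ in the sex chromosomes, in the mother's cytoplasm and uterine environment, and in which parent each imprinted allele came from. In the first wave of spermatogenesis the germ cells pass in near synchrony from spermatogonia into meiosis. The first pachytene spermatocytes appear around the age studied, switch on a large set of testis genes and silence the X and Y in the sex body. The amount of pachytene RNA in a juvenile testis therefore depends strongly on how far the wave has advanced.

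The tissue label was checked against marker genes. Across the 9 arrays the meiotic genes Sycp1 (log2 level 9.30 to 10.59), Sycp3 (9.37 to 10.43) and Dmc1 (9.15 to 9.58) were above the level under which genes were left out as dim (5.12), as were the spermatogonial Kit (9.39 to 9.90) and Dmrt1 (9.48 to 10.03). The spermatid gene Tnp1 (4.35 to 4.93) lay below that level, and Prm1 (5.16 to 5.43) just above it. Somatic cells were present too, with Sox9 of Sertoli cells at 8.87 to 9.62 and Acta2 of peritubular cells at 11.39 to 11.90. Xist, the RNA of the inactive female X, was dim at 4.32 to 4.88. Medians of the 9 arrays ran from 6.14 to 6.23.

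B6xBALB/C replicate 6 stood apart. It was low in genes of pachytene spermatocytes: the mean of 28 such genes, relative to all 23 arrays, was -0.70 there. In B6xBALB/C replicates 1, 2, 3 and 5 it was 0.91, 0.99, 0.70 and 0.94, in replicate 4 it was 0.31, and in the BALB/CxB6 arrays it was -0.33, -0.32 and -0.21. Replicate 6 thus lay below every BALB/CxB6 array, and the other 5 arrays of its group above them. The labels give no reason to set it aside, so it was kept, and values without it are given for lists and genes whose call it changed. It was singled out after its values were seen, so values without it are given as description only.

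Of 14746 genes tested, 65 (0.441%) differed between B6xBALB/C and BALB/CxB6 by limma at an adjusted p under 0.05. Of these, 53 (0.359%) were higher in B6xBALB/C, by 0.42 to 1.93 log2 units (median 0.97), and 12 (0.0814%) were lower, by 0.46 to 0.79. At an unadjusted p under 0.05 there were 2095 genes (14.2%), 1048 higher (7.11%) and 1047 lower (7.1%). All 12 genes that fell had arrays that did not overlap between the groups. Of the 53 that rose, 25 did not overlap, and in 28 B6xBALB/C replicate 6 was at or below the highest BALB/CxB6 array. Over all genes, 1.36% had every B6xBALB/C array above and 2.54% every one below the BALB/CxB6 arrays.

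This count depended on every one of the 9 arrays. Without B6xBALB/C replicate 6 it was 1011, all 65 among them, with 770 genes (5.22%) higher and 241 (1.63%) lower, and without replicate 4 it was 218. Without replicates 1, 2, 3 and 5 in turn it was 4, 4, 7 and 3, and without BALB/CxB6 replicates 1, 2 and 3 it was 8, 2 and 1. With only these 9 arrays fitted limma called 0 genes, with 1806 at an unadjusted p under 0.05. With B6xBALB/C replicates 1 to 3 alone it was 1275, with 920 (6.24%) higher and 355 (2.41%) lower, and with replicates 4 to 6 alone 0, with 1355 at an unadjusted p under 0.05. In the order of deposit, replicates 1 to 3 stand well before the BALB/CxB6 arrays and replicates 4 to 6 directly after them. The labels give no run or date for any array, and whether these sets were processed apart was not tested. An adjusted p depends on the p of all genes tested, so it can fall when many other genes pass. Armcx1 had a limma p of 4.44e-05 with all arrays and 8.12e-05 without B6xBALB/C replicate 6. Its adjusted p was 0.0386 and 0.00277. A call gained without that array thus need not mean a larger difference.

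**Figure D1:**
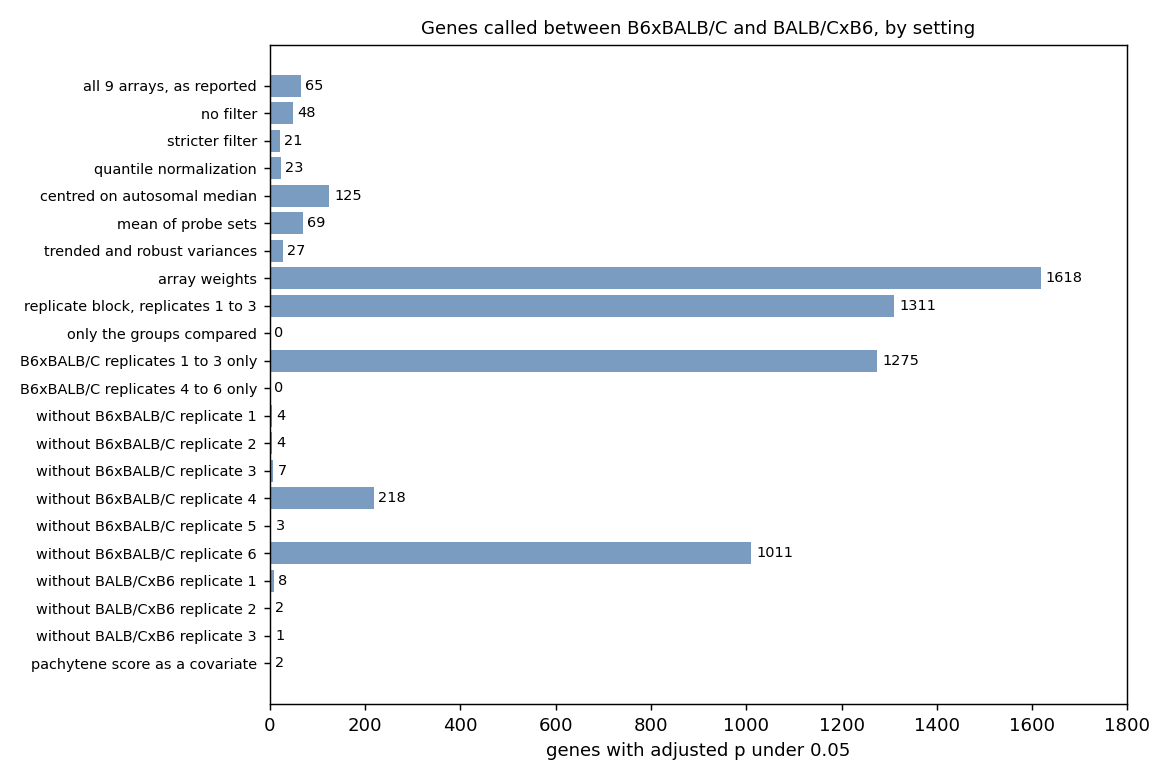
Number of genes with an adjusted p under 0.05 between B6xBALB/C and BALB/CxB6 in the reported analysis and in each alternative. The count is 65 as reported, 1618 with array weights, 1011 without B6xBALB/C replicate 6, and 0 when only the groups compared are fitted.

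The X chromosome, which differs by strain between the groups, held 7 of the 65 genes. They are 1.48% of its 474 tested genes, against 56 of 14222 (0.394%) on autosomes, and 2 genes were unplaced. Of these, 4 (0.844%) fell, namely 4930595M18Rik, Chrdl1, Rhox13 and Haus7, and 3 (0.633%) rose, namely Klhl4, Col4a6 and Armcx1. Leaving out 1 array in turn moved the X-linked count between 1 (without BALB/CxB6 replicate 2 or 3) and 39 (without B6xBALB/C replicate 6). In none of the 7 did the arrays of the groups overlap, and B6xBALB/C replicate 6 lay with the rest of its group in each.

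For 4930595M18Rik, Klhl4 and Col4a6 the 250 bases before the gene start are shown. 4930595M18Rik and Klhl4 are among the X-linked genes with the smallest p, as is Chrdl1, for which RefSeq gave no window. Col4a6 was chosen because it rose and its window holds the Myb motif AACNGTT, so its match was fixed by the choice. The reference is the B6 allele, the one in B6xBALB/C males. The sequences are from RefSeq, build GRCm38.p6, at chrX:81458123-81458372 (minus strand), chrX:114474083-114474332 (plus strand) and chrX:141474077-141474326 (minus strand). Capitals mark a match to AACNGTT. The BALB/C sequence was not used here.
4930595M18Rik: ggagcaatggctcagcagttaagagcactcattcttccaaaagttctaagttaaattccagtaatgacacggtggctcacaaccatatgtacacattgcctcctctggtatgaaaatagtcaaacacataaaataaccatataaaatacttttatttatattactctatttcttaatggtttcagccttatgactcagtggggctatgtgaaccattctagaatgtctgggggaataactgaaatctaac
Klhl4: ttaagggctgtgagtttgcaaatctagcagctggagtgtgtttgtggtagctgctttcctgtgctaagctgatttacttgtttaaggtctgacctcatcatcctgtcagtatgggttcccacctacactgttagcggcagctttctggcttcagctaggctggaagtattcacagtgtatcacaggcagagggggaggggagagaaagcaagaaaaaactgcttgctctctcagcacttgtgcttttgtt
Col4a6: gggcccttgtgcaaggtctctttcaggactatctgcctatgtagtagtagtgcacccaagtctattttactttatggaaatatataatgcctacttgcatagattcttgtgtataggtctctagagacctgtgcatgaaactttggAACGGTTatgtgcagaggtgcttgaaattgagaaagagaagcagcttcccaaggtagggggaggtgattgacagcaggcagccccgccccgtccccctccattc

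The Myb motif, named for the MYB factors, of which A-MYB acts in pachytene transcription, was searched on both strands, as was the cAMP response element TGACGTCA. In Col4a6 the match begins 104 bases before the start, and the other pair of windows holds neither motif. RefSeq gave windows for 46 of the 53 genes that rose (57 windows) and 10 of the 12 that fell (13 windows). AACNGTT was in 1 of the 57 windows (1.75%) and in 0 of the 13, against 2.99% of 14733 windows of all tested genes. TGACGTCA was in 1 of the 57 (1.75%) and 0 of the 13, against 2.4% of all. A match is a description of these letters only.

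Klhl4, a kelch-like protein gene, had the largest measured difference of the 7. Its log2 level was 5.44 to 6.29 in B6xBALB/C (median 5.85) and 4.83, 4.74 and 4.54 in BALB/CxB6. Every BALB/CxB6 array was below the level at which genes were left out as dim, and every B6xBALB/C array above it. The difference was 1.13 (SE 0.185, limma adjusted p = 0.0164). Signal over background is unknown for the BALB/CxB6 arrays, so no fold is given. In inbred B6, which carries the same X as B6xBALB/C, the level was 6.03, 5.86 and 6.20, within the range of the B6xBALB/C arrays.

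4930595M18Rik, a RIKEN gene of unknown role, had the smallest p of all genes. Its level was 4.77 to 5.22 in B6xBALB/C (median 4.95) and 5.76, 5.72 and 5.77 in BALB/CxB6. The B6xBALB/C arrays straddled the dim level and the BALB/CxB6 arrays lay close together above it. The difference was -0.79 (SE 0.115, limma adjusted p = 0.00739). B6 had 4.92, 5.16 and 5.22, again within the B6xBALB/C range.

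Chrdl1 encodes a secreted antagonist of bone morphogenetic proteins. Its level was 7.26 to 7.74 in B6xBALB/C (median 7.66) and 8.56, 8.33 and 8.0 in BALB/CxB6. The lowest B6xBALB/C array was replicate 4. The difference was -0.69 (SE 0.113, limma adjusted p = 0.0164), and B6, at 8.07, 7.87 and 7.82, lay between the groups and reached into the BALB/CxB6 range.

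Col4a6, a chain of the type IV collagen of basement membranes, had 5.95 to 6.39 in B6xBALB/C (median 6.16) and 5.41, 5.43 and 5.66 in BALB/CxB6. Its B6xBALB/C arrays were all the higher ones, by 0.69 on average (SE 0.133, limma adjusted p = 0.0386). Armcx1, of an armadillo-repeat family tied to mitochondrial transport, had 6.67 to 7.29 (median 7.13) against 6.38, 6.29 and 6.63. Its groups came within a small step of each other at B6xBALB/C replicate 4 and BALB/CxB6 replicate 3, with a difference of 0.62 (SE 0.122, limma adjusted p = 0.0386).

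Rhox13, a homeobox gene of the X-linked Rhox cluster expressed in germ cells, had 7.26 to 7.65 in B6xBALB/C (median 7.40) and 7.76, 8.02 and 8.53 in BALB/CxB6. The BALB/CxB6 arrays were spread more widely than the 6 of the other direction, and the difference was -0.67 (SE 0.143, limma adjusted p = 0.0436). Haus7, a subunit of the augmin complex of the spindle, had 7.96 to 8.36 (median 8.22) against 8.63, 8.53 and 8.83, a difference of -0.46 (SE 0.0974, limma adjusted p = 0.0436). Its arrays were separated by a gap smaller than the range within either group.

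**Figure D2:**
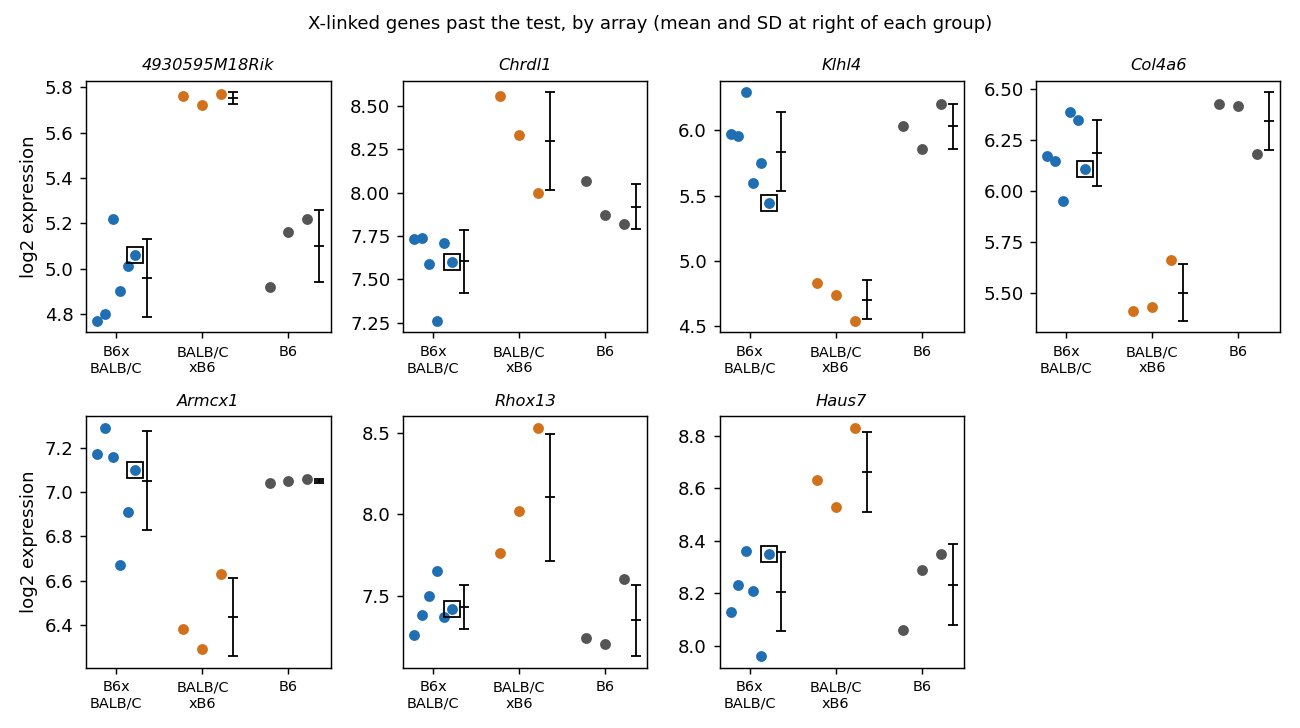
Log2 expression of the 7 X-linked genes past the test, by array, in B6xBALB/C (6 arrays), BALB/CxB6 (3) and inbred B6 (3), with the mean and SD at the right of each group and a square around B6xBALB/C replicate 6. The B6xBALB/C and BALB/CxB6 points do not overlap in any panel, as in Klhl4 with 5.44 to 6.29 against 4.54 to 4.83.

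In all 7 X-linked genes the mean of inbred B6 was nearer to B6xBALB/C than to BALB/CxB6. This was so in 45 of the 56 autosomal genes past the test. For Klhl4 the BALB/CxB6 minus B6 difference was -1.32 (limma adjusted p = 0.00237) and the B6xBALB/C minus B6 difference -0.19 (adjusted p = 0.579). For Chrdl1 they were 0.38 (adjusted p = 0.129) and -0.31 (adjusted p = 0.103), so neither passed. These differences share arrays with the comparison that chose the genes, and are given as values only.

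The 3 steadiest calls were X-linked. 4930595M18Rik passed in 16 of 20 other settings, Chrdl1 in 16 of 21 and Klhl4 in 15 of 20. The adjusted p of 4930595M18Rik was 0.0615 without BALB/CxB6 replicate 3 and at most 0.0417 without any other array of either group. Chrdl1 lost its call without BALB/CxB6 replicate 1 (adjusted p = 0.0687) or replicate 2 (0.056), and Klhl4 without replicate 2 (0.056) or replicate 3 (0.239). Col4a6 passed in 11 of 20 settings, Armcx1 and Rhox13 in 11 of 21 and Haus7 in 9 of 21. The autosomal Smtnl2 (13 of 21), Atf3 (12 of 21) and Sfxn1 (12 of 21) passed more often than these X-linked genes. The directions of all 7 X-linked genes were kept in each setting that gave a value. The stricter filter on dim genes left out Klhl4, 4930595M18Rik and Col4a6, which thus have 20 settings in place of 21.

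Beyond these 7, the X as a whole lay lower in B6xBALB/C. The median difference of its 474 genes was -0.14, and 382 of them (80.6%) were below 0. Autosomal genes had a median of -0.02 with 56.9% below 0, and all genes a median of -0.03. The share of X-linked genes below 0 was 75.1% to 86.6% in the planned settings that kept the filter on dim genes or made it stricter. Without the filter it was 70.9%, and with the pachytene mean as a covariate 63.3%. The split of the calls also differed by chromosome: without B6xBALB/C replicate 6, 35 of 39 X-linked genes past the test were lower in B6xBALB/C, while 762 of 968 autosomal ones were higher.

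For each array the average X-linked level less the average autosomal level, relative to all 23 arrays, was taken. This X score ran from -0.164 to 0.0168 in B6xBALB/C (median -0.106). It was 0.0176 to 0.0836 in BALB/CxB6 (median 0.0385), so the groups did not overlap but nearly met. Inbred B6, with the same X as B6xBALB/C, had -0.0676 to 0.0291. The highest B6xBALB/C value was that of replicate 6, which also had the lowest pachytene mean. The next was -0.0311 in replicate 3, and the lowest was that of replicate 5. Whether the pachytene RNA takes part in the X-linked shift was not tested. The covariate cannot decide it, because it is the mean of genes that themselves were mostly higher in B6xBALB/C.

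Next in the order of p on the X were 3 genes that did not pass. Gspt2, a retrogene copy of a translation termination factor, had 7.08 to 7.53 in B6xBALB/C (median 7.31) and 7.74, 7.57 and 8.18 in BALB/CxB6 (difference -0.54, adjusted p = 0.0546). 4930550L24Rik (-0.75, adjusted p = 0.0663) and Apool (-0.49, adjusted p = 0.067), a gene of mitochondrial cristae, were also below 0, with no overlap of arrays. Over all genes, 2.54% had every B6xBALB/C array below. Without B6xBALB/C replicate 6 all 3 fell, Gspt2 by 0.59 (adjusted p = 0.00389), 4930550L24Rik by 0.81 (0.00938) and Apool by 0.52 (0.0126). In that setting 1.63% of all genes and 35 of 474 on the X fell. The 3 were picked by their p, so these values are no separate support.

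Among 24 tested X-linked germ cell genes, Rhox13 fell and none rose by limma, with 19 of 24 below 0 and a median of -0.15, close to the 80.6% and -0.14 of the whole X. Without B6xBALB/C replicate 6, Nxf2, an mRNA export factor of germ cells, fell too (-0.51, SE 0.143, adjusted p = 0.0312). Its difference and SE were close to those with all arrays. With all arrays Nxf2 had 9.52 to 9.72 in B6xBALB/C (median 9.63) and 10.05, 10.35 and 9.99 in BALB/CxB6, a gap wider than the spread within B6xBALB/C, and missed the threshold (-0.50, SE 0.138, adjusted p = 0.0734).

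The X homologs of Y genes, which encode dosage-sensitive regulators of transcription and translation, were below 0 in 8 of 8 cases with a median of -0.19. None of them passed, and 4 had an unadjusted p under 0.05, beside 22.8% of all X-linked genes lower at that p and 80.6% below 0. Ddx3x, an RNA helicase, had 10.34 to 10.68 in B6xBALB/C (median 10.50) and 10.77, 10.76 and 10.80 in BALB/CxB6. These arrays did not overlap, beside 2.54% of all genes with every B6xBALB/C array below. The difference was -0.26 (SE 0.0944, limma adjusted p = 0.174). Eif2s3x (-0.27), Kdm6a (-0.21) and Rbmx (-0.29) had similar values, with overlapping arrays only in Rbmx.

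The Y, which comes from BALB/C in B6xBALB/C and from B6 in BALB/CxB6, showed no difference past the test in its 8 measured genes. By limma 0 of 8 passed and 2 had an unadjusted p under 0.05, beside 14.2% of all genes. Eif2s3y, a translation initiation factor subunit needed by spermatogonia, had 8.90 to 9.15 in B6xBALB/C (median 9.11) and 9.28, 9.29 and 9.49 in BALB/CxB6. Its arrays did not overlap, and the difference was -0.27 (SE 0.0852, adjusted p = 0.111). Uty, a demethylase-family gene, had 7.49 to 7.96 (median 7.81) against 8.07, 8.23 and 8.01, also without overlap (-0.31, SE 0.115, adjusted p = 0.202). Over all genes, 2.54% had every B6xBALB/C array below the BALB/CxB6 arrays.

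The other Y-linked genes overlapped between the groups. Uba1y, a ubiquitin-activating enzyme, differed by -0.29 (adjusted p = 0.358) and Sry, the testis-determining gene, by 0.20 (adjusted p = 0.543). Zfy1 (-0.06), Zfy2 (0.03), Kdm5d (-0.05) and Usp9y (-0.01) lay close to 0, with standard errors of 0.152 to 0.197. Of 28 mitochondrially encoded genes, which also follow the mother, 0 were among the named probe sets.

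A reciprocal cross turns round the parental origin of imprinted alleles without changing their number. None of 23 paternally expressed and 20 maternally expressed imprinted genes passed the limma test, which 0.441% of all genes passed. Their medians were -0.05 and -0.06, beside -0.03 over all genes. Of the paternally expressed genes 1 had an unadjusted p under 0.05, beside 14.2% of all genes. That gene was Inpp5f, an inositol phosphatase gene with an imprinted variant (difference -0.20, SE 0.0858, adjusted p = 0.275). Zdbf2, expressed from the paternal allele, was the member of the lists with no overlap of arrays. Over all genes, 1.36% had every B6xBALB/C array above. Zdbf2 had 8.30 to 8.76 in B6xBALB/C (median 8.41) and 8.20, 8.27 and 8.14 in BALB/CxB6, and did not pass (0.25, adjusted p = 0.412). Nnat (-0.20), Sgce (-0.14), Ascl2 (-0.22), Osbpl5 (-0.22), Cd81 (-0.20) and Kcnq1 (-0.17) had adjusted p from 0.389 to 0.527.

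The 10 largest rises were autosomal, and in each of them B6xBALB/C replicate 6 was the lowest array of its group. Tmbim7, of a family of transmembrane BAX inhibitor motif proteins, had 5.09 to 7.98 in B6xBALB/C (median 7.65) and 5.20, 5.40 and 5.10 in BALB/CxB6. Of the B6xBALB/C arrays, 5 were above every BALB/CxB6 array, while replicate 6 was below all of them. The difference was 1.93 (SE 0.418, limma adjusted p = 0.0454). Atp8b3, a phospholipid flippase of the acrosome, had 6.04 to 8.82 (median 8.64) against 6.50, 6.26 and 6.18, with the same order of arrays and a difference of 1.81 (SE 0.408, adjusted p = 0.0483).

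Tdrd6, a tudor protein of the chromatoid body, had 4.73 to 7.04 in B6xBALB/C (median 6.85) and 5.02, 4.27 and 4.71 in BALB/CxB6. All 3 BALB/CxB6 arrays were below the dim level, replicate 6 lay among them and the other 5 were above them, for a difference of 1.70 (SE 0.37, limma adjusted p = 0.0455). The 7 other genes of the 10 largest rises shared this order, each with replicate 6 lowest of its group and overlapping BALB/CxB6. They were the flagellar genes Cfap65 (1.56), Cfap57 (1.36), Qrich2 (1.33) and the axonemal dynein chain Wdr63 (1.46), the ubiquitin ligase Marchf10 (1.55), the acrosome anchor Dpy19l2 (1.51) and Aym1 (1.40). Without replicate 6 the differences of these 10 genes were 1.56 (Qrich2) to 2.34 (Tmbim7), with limma adjusted p from 1.4e-06 to 5.2e-05. As replicate 6 was the lowest array of its group in each, every difference had to be larger without it. Inbred B6 had 5.93, 6.03 and 6.78 for Tmbim7, above BALB/CxB6 and below most B6xBALB/C arrays.

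**Figure D3:**
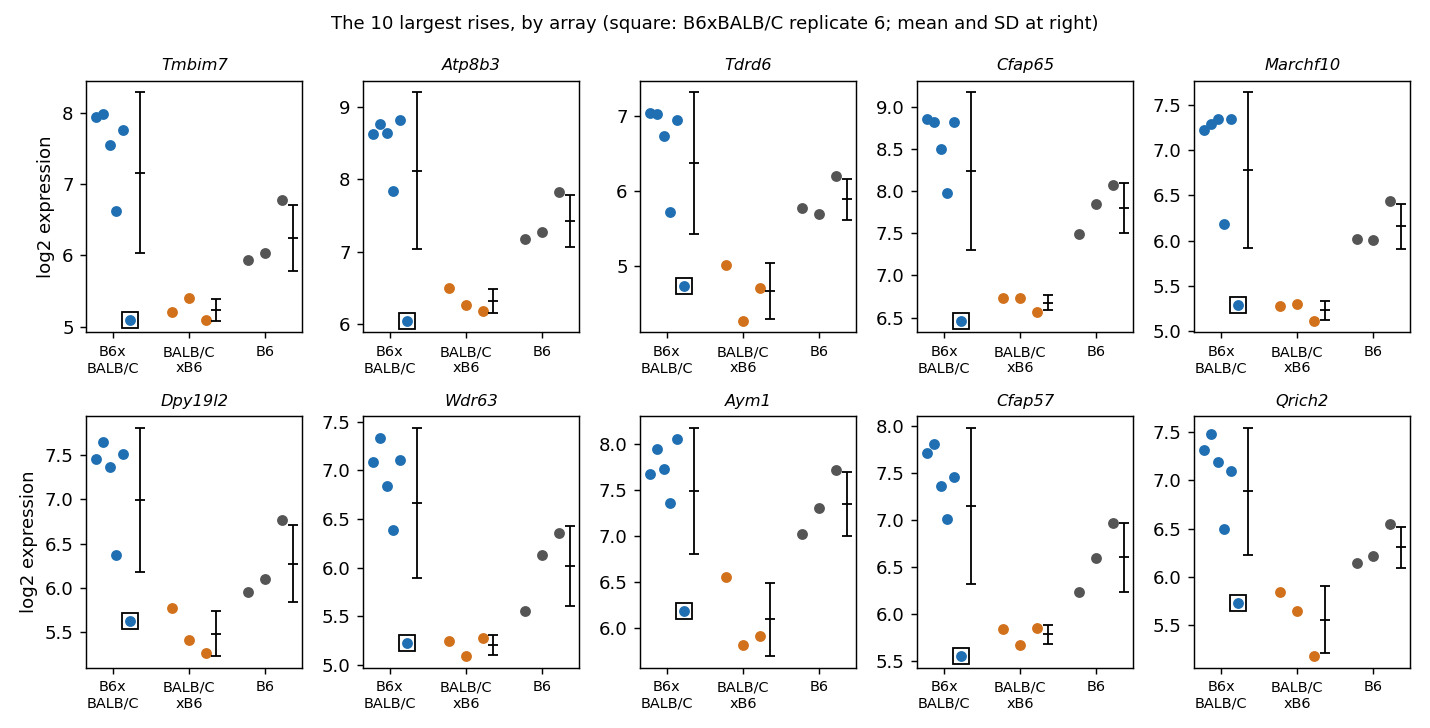
Log2 expression by array of the 10 genes with the largest rise, in B6xBALB/C (6 arrays), BALB/CxB6 (3) and inbred B6 (3), with the mean and SD at the right and a square around B6xBALB/C replicate 6. In each panel 5 B6xBALB/C arrays lie above the BALB/CxB6 arrays and replicate 6 lies among or below them, as in Tmbim7 at 5.09.

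Across the 53 genes that rose, replicate 6 was the lowest B6xBALB/C array in 45. The genes in which it was not include Atf3, Gadd45g, Smtnl2 and Elovl7, named after their values were seen. Smtnl2, a smoothelin-like gene, had 7.51 to 7.90 in B6xBALB/C (median 7.67) and 7.16, 7.20 and 7.07 in BALB/CxB6. Its groups were clearly apart, with a difference of 0.54 (SE 0.0964, limma adjusted p = 0.0369), and it passed in 13 of 21 other settings. Elovl7, a fatty acid elongase, had a difference of 0.42 (SE 0.0835, adjusted p = 0.0386), the smallest of the 53.

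Pachytene spermatocyte genes were higher in B6xBALB/C in 25 of 28 tested members, with a median of 0.84 beside -0.03 over all genes. By limma 1 passed, and 18 had an unadjusted p under 0.05 in this direction, against 7.11% of all genes. The gene that rose was Tcp11, a sperm motility gene, with 6.33 to 8.27 in B6xBALB/C (median 7.72) and 6.45, 6.36 and 6.28 in BALB/CxB6. Replicate 6 was within the BALB/CxB6 range and the difference was 1.20 (SE 0.272, adjusted p = 0.0483).

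Other members had larger differences and missed the threshold. Crisp2, a sperm cysteine-rich protein, had 4.80 in B6xBALB/C replicate 6 and 6.91 to 8.79 in the other 5 arrays, against 5.55, 5.44 and 5.59 in BALB/CxB6 (difference 2.13, adjusted p = 0.0729). Piwil1, the PIWI protein of pachytene piRNAs, had 6.89 in replicate 6 and 9.09 to 10.29 in the others, against 7.70, 7.67 and 7.62 (1.71, adjusted p = 0.0698). Ldhc, the testis lactate dehydrogenase, had 6.21 and then 8.80 to 10.09, against 7.33, 7.17 and 7.68 (1.71, adjusted p = 0.124). In these 3 genes, named after their values were seen, replicate 6 was below every BALB/CxB6 array. Spata16, an acrosome gene, differed by 1.46 (adjusted p = 0.0518), Ybx2, a germ cell RNA-binding protein, by 0.99 (adjusted p = 0.0659) and Tdrd5 by 0.85 (adjusted p = 0.0636).

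Without replicate 6, 19 of the 28 rose, beside 5.22% of all genes, Crisp2 by 2.71 (adjusted p = 2.1e-05), Ldhc by 2.29 (1.36e-05) and Piwil1 by 2.21 (1.92e-06). Spata16 (1.79), Ybx2 (1.21) and Tdrd5 (1.05) were among them. Replicate 6 was singled out by its low mean of these 28 genes, so a larger mean difference without it was fixed by that choice. With B6xBALB/C replicates 1 to 3 alone 19 rose, beside 6.24% of all genes, with a median of 1.13, and with replicates 4 to 6 alone none did by limma, with a median of 0.44 and 24 of 28 above 0. In RNA of mixed cells, fewer cells of a type and less RNA per cell cannot be told apart. How advanced the germ cells of each pool were is not among the labels, and its part in these results was not tested.

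**Figure D4:**
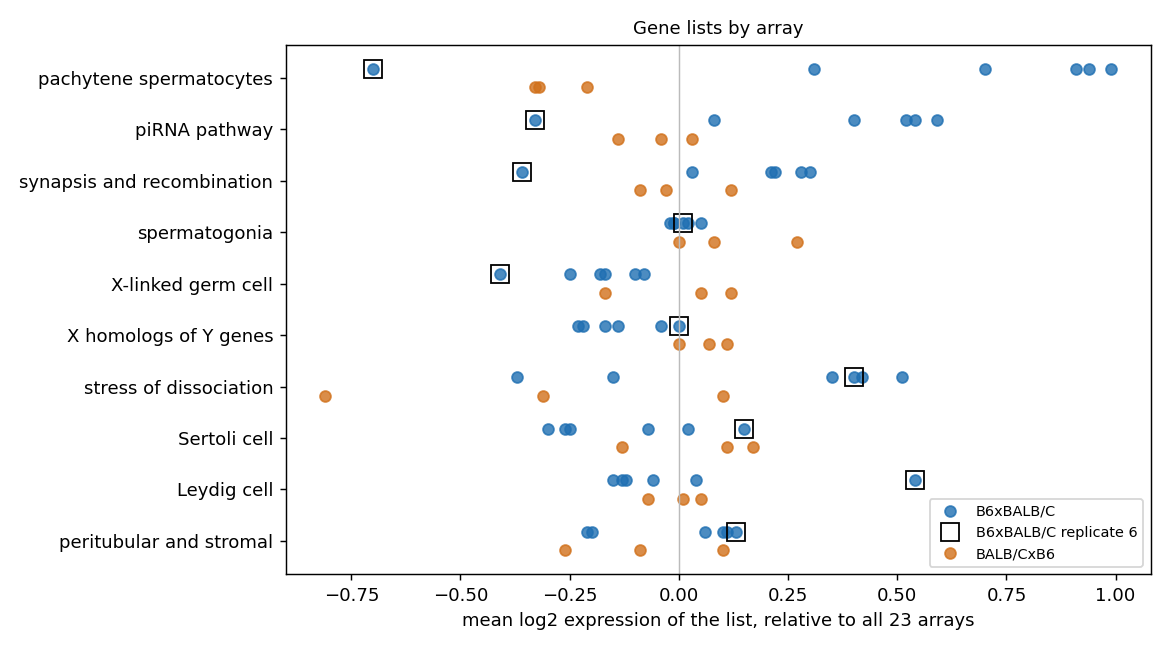
Mean log2 expression of 10 gene lists on each B6xBALB/C array (blue, 6) and BALB/CxB6 array (orange, 3), relative to all 23 arrays, with a square around B6xBALB/C replicate 6. In the pachytene list replicate 6 is at -0.70, the other B6xBALB/C arrays are at 0.31 to 0.99 and the BALB/CxB6 arrays at -0.33 to -0.21.

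The piRNA pathway, which silences transposons in germ cells, followed the same arrays. Of 17 tested genes 15 were above 0, with a median of 0.28, and Tdrd6 alone passed. Piwil2, a PIWI protein present from spermatogonia on, had 9.97 to 10.80 in B6xBALB/C (median 10.61) and 10.10 ± 0.13 (SD, n = 3) in BALB/CxB6, with replicate 6 the lowest of the 9 arrays (0.41, adjusted p = 0.144). Piwil4, the PIWI protein of fetal germ cells, was on the other side of 0 (-0.30, adjusted p = 0.192). Without replicate 6, 10 of the 17 rose, beside 5.22% of all genes, among them Tdrd1 (0.69), Mael (0.52) and Piwil2 (0.52), and none fell.

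Synapsis and recombination genes had a median of 0.11 over 32 tested members, 20 above 0. The median was 0.20 without B6xBALB/C replicate 6 or without BALB/CxB6 replicate 2. It was 0.06 without B6xBALB/C replicate 5, 0.04 without BALB/CxB6 replicate 1 and 0.07 without replicate 3, and with B6xBALB/C replicates 4 to 6 alone it was -0.06 with 14 of 32 above 0. None passed by limma, 5 were higher and 3 lower at an unadjusted p under 0.05, beside 7.11% and 7.1% of all genes. The 3 lower ones were the meiotic cohesins Rec8 (-0.39, adjusted p = 0.125) and Rad21l (-0.36, adjusted p = 0.117) and the break-repair gene Tex15 (-0.36, adjusted p = 0.0666). Their arrays did not overlap, beside 2.54% of all genes with every B6xBALB/C array below. They were picked by their p, so the separation is no further support. Tex15 had 9.55 to 9.81 in B6xBALB/C (median 9.70) and 9.86, 10.19 and 10.13 in BALB/CxB6. Msh4, a crossover factor, differed by 0.53 (adjusted p = 0.148). Without replicate 6, 9 of the 32 rose and 2 fell, beside 5.22% and 1.63% of all genes. Among them were Msh4 (0.68), Spo11 (0.59), which makes meiotic breaks, and Meiob (0.86), and the fallen Rec8 (-0.44) and Tex15 (-0.33).

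Spermatogonial genes had a median of -0.13, with 17 of 23 below 0 and none past the limma test. Without BALB/CxB6 replicate 2 the median was -0.01, with 11 of 23 above 0, and with B6xBALB/C replicates 4 to 6 alone -0.07. Neurog3, a factor of progenitor spermatogonia, had 5.31 to 5.52 in B6xBALB/C (median 5.42) and 5.87, 5.85 and 5.98 in BALB/CxB6. Its arrays did not overlap, beside 2.54% of all genes with every B6xBALB/C array below. Replicates 3 and 6 (5.52) were the nearest to the other group, and the groups had a difference of -0.48 (SE 0.112, adjusted p = 0.0518). Sohlh1 (-0.50, adjusted p = 0.1), a regulator of spermatogonial differentiation, and Uchl1 (-0.24, adjusted p = 0.226) were lower as well, and Id4 (0.39, adjusted p = 0.116), a stem cell gene, higher. Without replicate 6, Neurog3 (-0.50) and Sohlh1 (-0.51) fell, beside 1.63% of all genes. Id4 (0.45) and Ddx4 (0.46) rose, beside 5.22% of all genes. Prdm9, the histone methyltransferase that places meiotic breaks and is tied to hybrid sterility, had 7.91 to 8.30 in B6xBALB/C (median 7.99) and 8.11, 8.19 and 8.0 in BALB/CxB6, which overlapped (-0.03, SE 0.138, adjusted p = 0.952).

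Of the 12 genes that fell, 8 were autosomal. Anp32e, a chaperone that removes the histone variant H2A.Z, had 8.11 to 8.50 in B6xBALB/C (median 8.37) and 8.82, 8.76 and 9.30 in BALB/CxB6, a difference of -0.63 (SE 0.128, limma adjusted p = 0.0386). Sfxn1, a mitochondrial serine transporter, had 8.14 to 8.74 (median 8.47) against 9.04, 8.92 and 9.30 (-0.61, SE 0.12, adjusted p = 0.0386). In both the BALB/CxB6 arrays were the 3 highest of the 9. Ugp2, which makes UDP-glucose, fell by 0.52, Oxct1, which uses ketone bodies, by 0.48, and Nfyc, a subunit of the transcription factor NF-Y, by 0.48. Prr23a1, a proline-rich gene, fell by 0.48 and the pseudogene Rps19-ps3 by 0.65. Probes of the latter may also read the near-identical ribosomal gene, so its identity is uncertain. In the 12 genes that fell, replicate 6 was the lowest array of its group in 0 and the highest in 5.

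Genes that respond to the stress of tissue handling were also measured. Of 17 tested, 15 were above 0 with a median of 0.60, and 10 had an unadjusted p under 0.05 in this direction, beside 7.11% of all genes. Without BALB/CxB6 replicate 3 the median was 0.28. The early response factor Atf3 rose, with 8.87 to 9.86 in B6xBALB/C (median 9.58) and 8.86, 8.44 and 7.76 in BALB/CxB6. The groups nearly touched at the lowest B6xBALB/C and the highest BALB/CxB6 array, and the difference was 1.05 (SE 0.211, limma adjusted p = 0.0386). Fosb (1.15, adjusted p = 0.0663), Socs3 (0.61, adjusted p = 0.0732) and Jun (0.53, adjusted p = 0.0591) did not pass. Without B6xBALB/C replicate 6 all 3 rose by limma, beside 5.22% of all genes, Fosb by 1.13 (adjusted p = 0.0238), Socs3 by 0.63 (0.0226) and Jun by 0.52 (0.0179). Their differences hardly changed from those with all arrays. Without BALB/CxB6 replicate 1, Fosb (1.67, adjusted p = 0.0412) and Jun (0.73, adjusted p = 0.0424) rose. The list mean was -0.81 in BALB/CxB6 replicate 3, -0.31 in replicate 2 and 0.10 in replicate 1. In B6xBALB/C it ran from -0.37 in replicate 3 to 0.51 in replicate 1, so the groups overlapped. Replicate 6, low in pachytene genes, was among the high arrays here at 0.40. The part of the stress genes in the other differences was not tested.

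Sertoli cell genes had a median of -0.19, with 21 of 25 below 0 and none past the limma test (6 lower at an unadjusted p under 0.05, beside 7.1% of all genes). Without BALB/CxB6 replicate 3 the median was -0.08. Cst9, a cystatin of Sertoli cells, had 10.26 to 11.07 in B6xBALB/C (median 10.66) and 11.24, 10.82 and 11.80 in BALB/CxB6, which overlapped (-0.60, SE 0.178, adjusted p = 0.0908). Inha (-0.44), an inhibin subunit, Gata1 (-0.32) and Trf (-0.28) had adjusted p from 0.127 to 0.27. Without replicate 6, these 4 of the 25 genes fell, beside 1.63% of all genes. The list mean was 0.15 in replicate 6, -0.30 to 0.02 in the other B6xBALB/C arrays and -0.13 to 0.17 in BALB/CxB6. In replicate 6 the Sertoli mean was thus the highest and the pachytene mean the lowest of the B6xBALB/C arrays, and the part of Sertoli RNA in the results was not tested.

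The other somatic lists had no gene past the limma test. Leydig cell genes (8 tested, median -0.08) had a list mean of 0.54 in replicate 6 and -0.15 to 0.05 in the other 8 arrays. Cyp17a1, a steroid hydroxylase, was 6.94 in replicate 6, and 5.34, 5.44 and 5.05 in BALB/CxB6 (difference 0.47, adjusted p = 0.52). Medians were 0.03 for 16 peritubular and stromal, 0.05 for 11 macrophage, -0.00 for 14 endothelial and 0.03 for 2 red blood cell genes. They were -0.09 for 19 interferon response genes and -0.13 for 7 control genes. At an unadjusted p under 0.05 were the peritubular Tagln (0.51, adjusted p = 0.14) and Cnn1 (0.32, adjusted p = 0.259), the interferon-induced Xaf1 (-0.35, adjusted p = 0.275) and Ifi35 (-0.24, adjusted p = 0.24), and the Leydig gene Cyp11a1 (0.47, adjusted p = 0.314). Among the control genes it was Hprt (-0.38, adjusted p = 0.115), an X-linked housekeeping gene. Its arrays did not overlap, beside 2.54% of all genes with every B6xBALB/C array below. Without replicate 6 Hprt fell (-0.41, adjusted p = 0.0448), beside 1.63% of all genes. Spermatid genes (9 tested) had a median of 0.03, and Acr, the acrosin gene, differed by 0.95 (adjusted p = 0.0873). Without replicate 6, Acr (1.19, adjusted p = 0.000207) and Odf2 (0.41, adjusted p = 0.0225), a sperm tail gene, rose by limma, beside 5.22% of all genes.

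The same B6-mother minus B6-father difference can be taken in the subspecies cross, B6xPWD minus PWDxB6, with which no array is shared. There 418 genes (2.83%) passed, 56 of the 474 on the X (11.8%). Of the 65 genes of the B6 and BALB/C cross, 5 passed in both. Klhl4 (1.13 here and 0.90 there), 4930595M18Rik (-0.79 and -0.51) and Aym1 (1.40 and 1.50) had the same direction, and Rhox13 (-0.67 and 0.90) and Nfyc (-0.48 and 0.64) opposite ones. For Klhl4 the means were 6.28 in B6xPWD, 5.38 in PWDxB6 and 5.26 in PWD, so the level was higher in males of a B6 mother in both crosses. Within these crosses the B6 X, the B6 mother and the Y of the other strain come together and cannot be told apart. Inbred B6 has the B6 Y with the B6 X and mother, but it also differs from the F1 males in its autosomes. The part of each was not tested. Rhox13 was 8.34 in B6xPWD and 7.44 in PWDxB6.

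**Figure D5:**
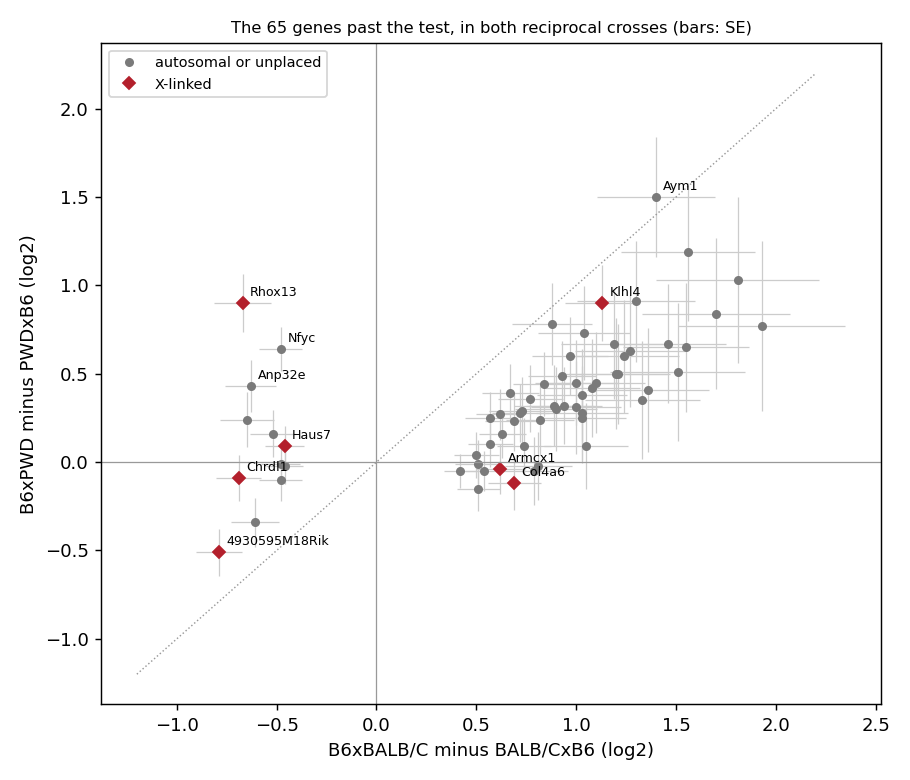
Log2 differences of the 65 genes past the test in B6xBALB/C minus BALB/CxB6 (horizontal) against B6xPWD minus PWDxB6 (vertical), with standard errors as bars, X-linked genes as red diamonds and equal differences on the dotted line. Klhl4 lies at 1.13 and 0.90 and Aym1 at 1.40 and 1.50, while Rhox13 lies at -0.67 and 0.90.

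The difference between the crosses was itself tested. By limma 395 genes (2.68%) passed, 118 (0.8%) with a higher and 277 (1.88%) with a lower difference in the B6 and BALB/C cross, and without BALB/CxB6 replicate 3 the count was 53. Without B6xBALB/C replicate 1 it was 237, without B6xPWD replicate 2 it was 122, and without PWDxB6 replicates 1 and 3 in turn it was 113 and 130. Of the 65 genes, 9 were among the 395, beside 2.68% of all genes. This test contains the difference that chose the 65, from the same arrays. Their overlap and sizes are thus raised by the choice and are given as values only. Of the 9, Rhox13 differed most (-1.57, limma adjusted p = 0.00102). Fgf2, a fibroblast growth factor, had means of 5.87 in B6xBALB/C and 5.67 in BALB/CxB6 against 6.15 in B6xPWD and 7.48 in PWDxB6, a difference of differences of 1.52 (adjusted p = 0.000517). Fgf2 thus did not pass in the control cross (0.20, adjusted p = 0.517). Cyp26b1, which degrades retinoic acid, differed by 1.27 (adjusted p = 0.0112) and Tsx, an X-linked gene, by 1.01 (adjusted p = 0.0172). On the other side were the X-linked Magea5 (-2.55, adjusted p = 0.00592) and Gm648 (-2.35, adjusted p = 0.000517) and the tetraspanin gene Cd63 (-2.45, adjusted p = 0.00309). Magea5 has near-identical family copies, so its probes are uncertain.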

How the data were processed

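The authors deposited 1 table of log2 values for 25690 probe sets on 23 arrays. Its log base was taken from the range (1.17 to 13.96); how the authors made them (software, background correction, normalization, centring) is not given in the sources used here. Array medians of 6.13 to 6.28 show a like scale, and the signal of a probe over background is unknown. Platform annotation gave 1 symbol for 20777 probe sets, several for 232 and none for 4681, and the last 2 kinds were not named. Chromosomes came from RefSeq GRCm38.p6 through 20696 matched Entrez IDs. The brightest probe set stood for a gene (564 of 19661 had more than 1), and the dimmest 25% of genes (mean log2 below 5.12) were left out. With R 4.3.3 and limma 3.58.1, means of 7 genotypes were fitted over the 23 arrays, with 16 residual degrees of freedom and no block. The p-values were adjusted by Benjamini-Hochberg over 14746 genes, and a call is an adjusted p under 0.05. The labels do not say that pools are of separate litters; p-values thus reflect pool-to-pool spread, which may be technical, and the few arrays limit precision. On simulated arrays the fit recovered 64.8% of differences of 0.5 and 97.2% of differences of 1 log2 unit, with 5.1% false calls. The simulated noise was independent for each gene and array. It thus lacks deviations shared by many genes of an array, such as those of B6xBALB/C replicate 6, and cannot show how the fit handles them.

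Genes are named if among the 10 largest called differences in each direction, the 10 X-linked genes with the smallest p, all Y-linked and mitochondrial genes, imprinted genes with an unadjusted p under 0.05 or the 4 with the smallest p, up to 4 of each other list, Prdm9 and Xist. Others named were chosen after their values were seen. The arrays compared and the gene lists were chosen with earlier results of these data known. Same-numbered arrays of the groups deviated together with correlations of 0.163, 0.0767 and 0.241, which does not show pairing. The alternatives were other filters on dim genes, normalizations, probe set rules, variance models and arrays. The pachytene covariate, the mean of the 28 tested pachytene genes on each array, was added after seeing the data. Plots used matplotlib 3.10.9 in Python 3.11.15.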

Additional observations from a re-analysis of the deposited data

Results flagged for a closer look

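Of 123 genes and list means checked in the 6 B6xBALB/C arrays, 10 had a single array far from the others, where chance alone gives about 1 in 20. In 6 of them it was replicate 6. That array had log2 levels of 6.04 for Atp8b3 (the others 7.84 to 8.82), 6.18 for Aym1 (7.36 to 8.05), 5.55 for Cfap57 (7.01 to 7.81) and 6.46 for Cfap65 (7.98 to 8.86). Its mean of spermatid genes was -0.22 (the others 0.06 to 0.16) and of Leydig cell genes 0.54 (-0.15 to 0.04). Replicate 1 was low in Uty (7.49) and in Fdx1 (7.25), a ferredoxin of steroid synthesis. Replicate 4 was low in Chrdl1 (7.26), and replicate 3 was high in the X-linked 1700013H16Rik (7.33).

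The difference between B6xBALB/C and BALB/CxB6 itself differed from that between B6xPWD and PWDxB6 in 395 genes by limma. Among the genes past the test in the B6 and BALB/C cross these were Rhox13 (-1.57), Nfyc (-1.13), Anp32e (-1.07), Rps19-ps3 (-0.89) and Ugp2 (-0.68), and, in the other direction, Col4a6 (0.81), BC049715 (0.65), Smtnl2 (0.59) and Elovl7 (0.47). Part of each of these differences is the one that chose the genes, so their sizes are given as values only. Col4a6 had means of 6.19 in B6xBALB/C and 5.50 in BALB/CxB6 against 6.05 in B6xPWD and 6.17 in PWDxB6.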

How the results depend on the processing

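The number of genes past the threshold (65, with 7 on the X and 56 on autosomes) moved under most alternatives, and the cause was not tested. It was 21 (4 and 17) with the stricter filter on dim genes, 23 (18 autosomal) with quantile normalization, 125 (114 autosomal) centred on the autosomal median, 27 (20 autosomal) with trended and robust variances, and 1618 (73 and 1538) with array weights. A fit of only the groups compared gave 0 (0 and 0; 1806 genes at an unadjusted p under 0.05). B6xBALB/C replicates 1 to 3 gave 1275 (38 and 1233), and replicates 4 to 6 gave 0 (0 and 0; 1355 unadjusted). With each array left out in turn the counts were 1 to 1011 in all, 1 to 39 on the X and 0 to 968 on autosomes; the lowest total was without BALB/CxB6 replicate 3 and the highest without B6xBALB/C replicate 6. No filter gave 48 and the mean of probe sets 69. With the pachytene covariate, chosen after seeing the data, 2 passed (1 and 1), Magea6 (-1.10) and Pdcd10 (-0.75), neither among the 65.

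The 395 genes that differed between the crosses were 2000 with array weights, 178 with only those groups fitted, 835 with B6xBALB/C replicates 1 to 3, 206 with replicates 4 to 6, 878 with the pachytene covariate and 53 (without BALB/CxB6 replicate 3) to 579 (without PWDxB6 replicate 2) with each array of the 4 genotypes left out in turn. Leaving out B6xPWD and PWDxB6 arrays was added after seeing the data.

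The replicate number as a block, on replicates 1 to 3 of each genotype, gave 1311 genes (45 on the X, 1262 autosomal) and 899 between the crosses. The samples share only a number, and without the block the same B6xBALB/C arrays gave 1275.

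Of the single-gene values, 2082 kept their side of the threshold, 742 lost and 123 gained a call, and none changed direction among called genes. Having 3 BALB/CxB6 arrays limits every comparison.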

Other observations

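Genes called with few others when 1 array was left out give some values not described above. Without BALB/CxB6 replicate 1, Rrm2, a ribonucleotide reductase subunit of DNA synthesis, was lower in B6xBALB/C by limma (-0.67, SE 0.125, adjusted p = 0.0431), as was the small nucleolar RNA gene Snora33 (-0.92, SE 0.17, adjusted p = 0.0431). Without BALB/CxB6 replicate 2, Nxnl2 was lower (-0.58, SE 0.0946, adjusted p = 0.0417). None of the 3 passed with all arrays. By chromosome, chromosomes 12, 16, 18 and 19 held 0 genes past the limma test among 510, 456, 357 and 489 tested, and the X held the largest share, 1.48%, followed by chromosome 3 with 7 of 658 (1.06%).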
